A study of Mus musculus with 4 samples.

Results

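The ER prolyl isomerases described here are 7 genes taken by symbol from the 32286 features of the count tables: the FKBP family members that carry an ER signal sequence (Fkbp2, Fkbp7, Fkbp9, Fkbp10, Fkbp11 and Fkbp14) and Ppib, which encodes cyclophilin B. Their RNA was counted in single nuclei of C57BL/6J littermates aged 5 weeks, with cortex and hippocampus dissected together, in 4 libraries of 1 mouse each. Of these, 2 carry the label Sel1L fl/fl and 2 the label Sel1L SynCre. Both groups carry loxP-flanked Sel1L alleles, and the Sel1L SynCre mice also carry a Cre driven by the Synapsin I promoter, which is active in postmitotic neurons and not to the same extent in every brain region. SEL1L is the partner of the ubiquitin ligase HRD1 in ER-associated degradation, the pathway that removes misfolded proteins from the ER. Where 4 values stand in a row, the first pair belongs to Sel1L fl/fl and the second to Sel1L SynCre, replicate 1 before replicate 2.

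Prolyl isomerases turn the peptide bond before a proline between its cis and trans forms, a slow step in the folding of many secreted and membrane proteins. FKBPs and cyclophilins are unrelated in structure and are named for the immunosuppressants they bind, FK506 and cyclosporin. Cyclophilin B is an abundant resident of the ER lumen that works with prolyl 3-hydroxylase and with protein disulfide isomerases. FKBP10 and FKBP14 are best known for the folding of procollagen, and FKBP7 binds the ER Hsp70 chaperone HSPA5 (BiP). FKBP11 is a membrane-anchored member of secretory cells such as plasma cells, and its gene is a known target of XBP1, the transcription factor made when the ER stress sensor IRE1 splices its mRNA. Neurons secrete peptides and fold large numbers of receptors and channels, so all of these enzymes have clients in the brain, although little collagen is made by neurons.

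After filtering, 33323 nuclei remained, with 66102844 to 101282315 unique molecular identifiers (UMIs) and 6805 to 11116 nuclei per library. The 7 members together made up a small share of these UMIs, from 422 for Fkbp11 and 358 for Fkbp10 to 20008 for Ppib over the 4 libraries. Nuclei were grouped into classes by marker genes, with 13 named neuron subtypes, and a class is called, for example, Sst-like after its list. UMIs were summed per library and class, and 10 neuron subtypes and 5 other classes were compared between genotypes. Levels are in CPM, the UMIs of a gene scaled to 1000000 UMIs of the same library and class. They can be compared between libraries and classes but not between genes.

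The labels were checked before any comparison. Cre transcripts were counted in both libraries labelled Sel1L SynCre (236 and 219 UMIs), were at 0 UMIs in Sel1L fl/fl replicate 2, and were also present, with 409 UMIs, in replicate 1 of the Sel1L fl/fl label. In Sst-like neurons the Cre level was 20.7, 0, 17.5 and 14.6 CPM, so this library held as much Cre RNA as the Sel1L SynCre libraries. In CA1-like neurons it was 0.696, 0, 0.278 and 0.278 CPM. Sel1l RNA did not fall in the libraries labelled Sel1L SynCre, being 98.9, 96.8, 465 and 321 CPM in Sst-like neurons and 117, 108, 116 and 103 in CA1-like neurons, and 3′ counts do not show which exons a transcript holds. Derl3, an ER-associated degradation gene that ER stress raises, had 0, 0, 104 and 76.0 CPM in Sst-like neurons, so both libraries labelled Sel1L fl/fl were at 0 for it. Replicate 1 of each label was male and replicate 2 female by Xist and Ddx3y. The called fold changes of Fkbp11, its shares in the classes where it was called, and the gene lists are therefore also given without Sel1L fl/fl replicate 1. For the other members, the calls lost or gained without that library are named. The levels across classes and the correlations include it. Between 10 and 34 barcodes were shared by any pair of libraries, at most 0.462% of the smaller library.

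Promoter sequences are shown first for Ppib, Fkbp11 and Fkbp14, so that the letters can be set beside the values. They are among the members that were higher together in the comparisons that follow. Fkbp2 and Fkbp7 also rose and are not printed. The RefSeq promoter table (GRCm38.p6) held 10 entries for 6 of the 7 members. Printed are the 250 bases before the start for Ppib (chr9:66059919-66060168, plus strand, just before the annotated gene start), for both Fkbp11 entries (chr15:98728199-98728448, before the annotated gene start, and chr15:98727628-98727877, inside the gene, both minus strand) and for the Fkbp14 entry inside its gene (chr6:54593175-54593424, minus strand), 5′ to 3′. Capitals mark CCAAT boxes and CCACG sites on either strand. The Fkbp7 entry and the Fkbp14 entry before its gene start (chr6:54597345-54597594) hold neither and are not printed, so the printed set is not representative.
Ppib: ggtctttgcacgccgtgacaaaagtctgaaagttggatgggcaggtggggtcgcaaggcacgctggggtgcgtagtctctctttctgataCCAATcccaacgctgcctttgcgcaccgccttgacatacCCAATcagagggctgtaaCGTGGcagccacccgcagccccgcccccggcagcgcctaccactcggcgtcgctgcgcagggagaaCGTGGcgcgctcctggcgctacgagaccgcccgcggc
Fkbp11, at the gene start: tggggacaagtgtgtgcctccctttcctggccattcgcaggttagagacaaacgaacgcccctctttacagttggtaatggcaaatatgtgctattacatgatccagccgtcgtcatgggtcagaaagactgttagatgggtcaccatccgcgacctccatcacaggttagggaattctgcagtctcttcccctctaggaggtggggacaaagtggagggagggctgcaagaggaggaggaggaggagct
Fkbp11, inside the gene: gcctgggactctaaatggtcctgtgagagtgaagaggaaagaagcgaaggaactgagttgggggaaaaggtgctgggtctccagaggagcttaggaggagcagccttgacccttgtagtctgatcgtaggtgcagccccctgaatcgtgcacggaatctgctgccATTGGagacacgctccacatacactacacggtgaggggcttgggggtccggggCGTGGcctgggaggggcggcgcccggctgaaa
Fkbp14, inside the gene: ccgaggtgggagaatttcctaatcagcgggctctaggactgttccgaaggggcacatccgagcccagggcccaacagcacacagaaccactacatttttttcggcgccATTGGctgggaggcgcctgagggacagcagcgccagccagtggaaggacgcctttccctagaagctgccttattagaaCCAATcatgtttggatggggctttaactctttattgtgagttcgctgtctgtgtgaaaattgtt
For comparison, the ER stress element of Hspa5, the textbook target of the unfolded protein response, lies at chr2:34772025-34772043 (plus strand) with its outer blocks in capitals.
Hspa5: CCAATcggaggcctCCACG

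Both strands of the 10 member promoters and of all 32851 promoters were searched for 7 motifs. The ER stress element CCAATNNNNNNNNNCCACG, which ATF6 binds together with NF-Y, was in 0 of 10 member promoters and in 0.113% of all promoters. The second ER stress element, ATTGG and CCACG 1 base apart, was in 0.0304% of all promoters, the unfolded protein response element TGACGTGG in 0.563%, the cAMP response element TGACGTCA in 1.55% and the amino acid response element TGATGNAA, read by ATF4, in 3.45%, and none of these letters stood in a member promoter. The shorter CCAAT was in 5 of 10 member promoters, in Fkbp2, Fkbp11, Fkbp14 and Ppib, against 33.8% of all promoters, and CCACG was in 4 of 10, in Fkbp2, Fkbp9, Fkbp11 and Ppib, against 28.3%. Both ER stress elements contain CCAAT and CCACG, and TGACGTGG contains CCACG on its other strand, so these searches overlap. Ppib had CCAAT and CCACG each at 2 places, and the inner Fkbp11 entry had each of them once. A match describes letters only.

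Members were higher with the SynCre label in 3 neuron subtypes and lower in none. Of 70 pairs of a member and a subtype, 51 passed the filter on low counts, and in 14 of these the member rose at an adjusted p under 0.05 by edgeR's quasi-likelihood test, with 0 lower. Over all genes in the 10 subtypes, 1.08% of the values tested were called higher. All 14 calls lay in dentate gyrus (DG)-like, Pvalb-like and Sst-like neurons, the granule cells of the hippocampus and the parvalbumin and somatostatin interneurons. Without Sel1L fl/fl replicate 1, 14 of 52 pairs were called, 13 of them in these 3 subtypes. With DESeq2 in place of edgeR, 9 were called, again all of them there. Where Fkbp11 was called, it passed the filter only through the Sel1L SynCre libraries. With at least 10 counts asked of every library it was not tested, and 12 of 43 pairs were called. Adjustment was made within each subtype, so the unadjusted p needed for a call differed between them. By edgeR, Ppib in CA3-like neurons was not called at an unadjusted p of 9.8e-04. Fkbp2 in Sst-like neurons was called at 0.0023.

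**Figure D1:**
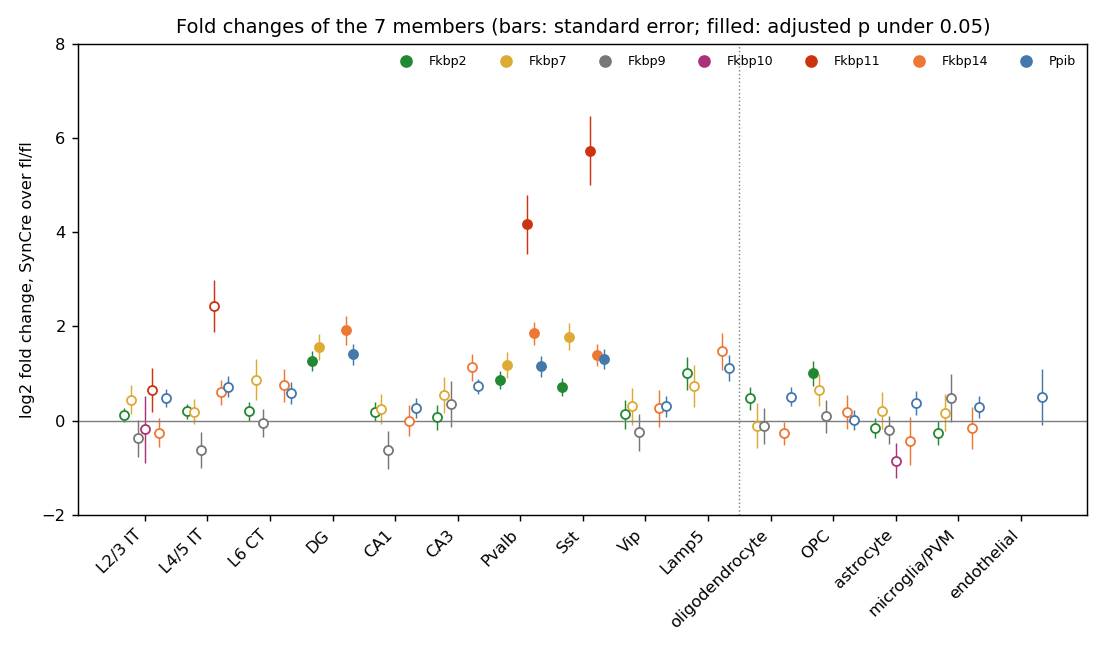
Log2 fold change of each tested member, Sel1L SynCre over Sel1L fl/fl, in 10 neuron subtypes (left of the dotted line) and 5 other classes. Bars are standard errors and filled points passed an adjusted p of 0.05; Fkbp11 in Sst-like neurons has the highest point (5.73), and the filled points lie in DG-, Pvalb- and Sst-like neurons and, for Fkbp2, in OPC-like nuclei.

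Fkbp11 had few UMIs in every neuron subtype of the Sel1L fl/fl libraries, and more in most subtypes of the Sel1L SynCre libraries. In Sst-like neurons its UMIs numbered 0, 1, 32 and 20, which is 0, 0.526, 17.5 and 12.2 CPM. The 2 groups stood far apart, with a summed ratio of 72.5 and a counting interval from 12.4 to 2917 at the 95% level. Its log2 fold change was 5.73 (SE 0.73, adjusted p = 2.2e-04 by edgeR), against 4.50% of all genes called higher in these neurons. Fkbp11 passed the filter on low counts here only through the Sel1L SynCre libraries, the group in which it was higher. The fitted fold depends on the prior count, being 3.71 on the log2 scale with a prior count of 2, and it was 4.60, adjusted p = 2.1e-04, without Sel1L fl/fl replicate 1.

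In Pvalb-like neurons Fkbp11 had 2, 1, 31 and 18 UMIs, or 0.565, 0.413, 13.3 and 7.44 CPM. Its log2 fold change was 4.17 (SE 0.63, adjusted p = 0.0018 by edgeR, where 2.38% of genes were called higher), the summed ratio was 20.5 (6.6 to 103), and without Sel1L fl/fl replicate 1 the log2 fold change was 4.44, adjusted p = 0.0030. When every subtype was thinned to the same number of UMIs per library, Fkbp11 was left with too few for the test in this class. Both interneuron classes thus held at most 3 UMIs over the Sel1L fl/fl label and at least 49 over the Sel1L SynCre label. In L4/5 IT-like neurons Fkbp11 had 3, 4, 16 and 17 UMIs, or 0.303, 0.561, 2.71 and 2.14 CPM, and the groups did not overlap. Its log2 fold change of 2.44 there (SE 0.55) missed the threshold (adjusted p = 0.065 by edgeR, where 0.986% of genes were called higher). It passed with no filter on low counts (2.42, adjusted p = 0.0056), with doublets kept (2.77, adjusted p = 0.046) and without integration (2.56, adjusted p = 0.044), and did not pass without Sel1L fl/fl replicate 1 (2.05, adjusted p = 0.22). In L2/3 IT-like neurons the log2 fold change was 0.65 (adjusted p = 0.62), where 0.237% of genes were called higher.

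In the other 6 subtypes Fkbp11 had too few UMIs for the test. With no filter on low counts, its log2 fold change there was between -0.70 and 3.45 and none passed, the lowest adjusted p by edgeR being 0.12 in DG-like neurons. Its UMIs were 1, 1, 8 and 4 in DG-like neurons (ratio 9.51, counting interval 2.12 to 87.5), 1, 0, 9 and 4 in CA3-like neurons (14.3, 2.15 to 608) and 1, 0, 8 and 2 in Lamp5-like neurons (12.4, 1.77 to 539). They were 2, 1, 3 and 7 in Vip-like neurons (4.19, 1.08 to 23.7) and 5, 5, 13 and 8 in L6 CT-like neurons (2.35, 1.06 to 5.60). These intervals cover counting error only and not the spread between mice. CA1-like neurons, pyramidal cells of the hippocampus, had 3, 2, 1 and 1 UMIs (0.627, 0.0597 to 3.83) and were the only subtype of the 10 in which both Sel1L SynCre libraries lay below both Sel1L fl/fl libraries. In the other 9 subtypes both lay above, an arrangement that 24.9% of all pairs of a gene and a subtype showed. Among neuron subtypes not tested, L5/6 NP-like neurons had 0, 2, 8 and 7 UMIs (8.60, 2.00 to 77.5). L6b-like neurons had 2, 0, 2 and 3 (2.87, 0.470 to 30.1), and thalamus-like neurons 0, 0, 1 and 0.

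**Figure D2:**
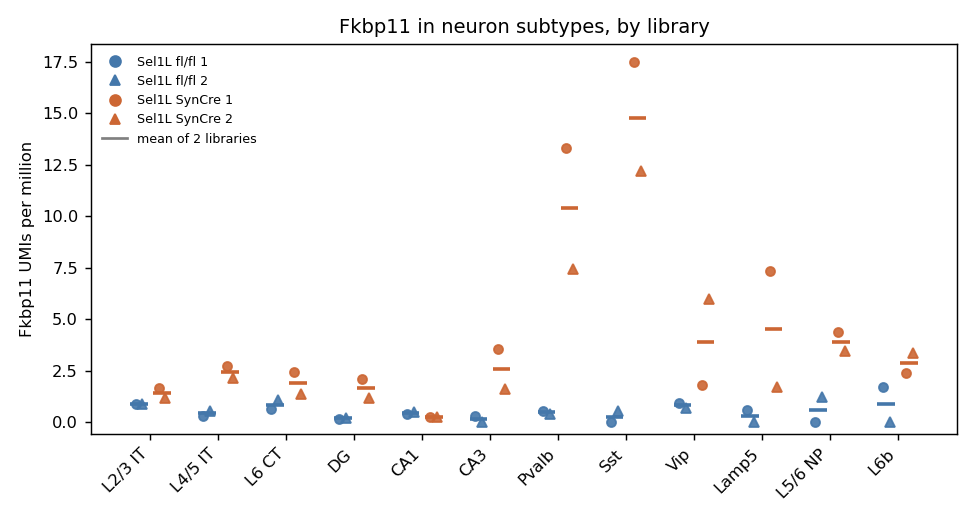
Fkbp11 CPM in 12 neuron subtypes, with 1 point per library and a bar at the mean of the 2 libraries of a label. The libraries labelled Sel1L SynCre reach 17.5 in Sst-like and 13.3 in Pvalb-like neurons, while no library labelled Sel1L fl/fl passes 1.73.

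Most nuclei with Fkbp11 held 1 UMI, and no nucleus held more than 3. In Sst-like neurons the share of nuclei with an Fkbp11 UMI was 0%, 0.543%, 17.1% and 11.8% (0 of 255, 1 of 184, 29 of 170 and 19 of 161 nuclei), at median depths of 10168, 8988.5, 8879.5 and 8677 UMIs. A count of 0 in 255 nuclei allows a share of up to 1.18%. In Pvalb-like neurons the shares were 0.692%, 0.452%, 14.3% and 8.17%. Thinned to 5000 UMIs per nucleus, the shares were 0%, 0.595%, 9.03% and 7.33% in Sst-like and 0.368%, 0%, 9.31% and 3.48% in Pvalb-like neurons, so the groups still did not overlap; 11 to 16 Sst-like and 7 to 17 Pvalb-like nuclei per library were too shallow and were left out. As a background, 0% to 0.274% of oligodendrocyte-like nuclei had an Fkbp11 UMI in any library, at median depths of 2567 to 3261 UMIs. Both Sel1L SynCre shares in each interneuron class lay well above this background, and the exact intervals of the Sel1L fl/fl shares, at most 0.692%, overlapped it.

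The contrast of Fkbp11 with the other members was put into 1 value per library, its share of the UMIs of all 7, which does not depend on the scaling between libraries. In Sst-like neurons Fkbp11 made up 0%, 0.510%, 6.18% and 5.70% of them, a difference of 5.68 percentage points between means of 0.255% ± 0.361 and 5.94% ± 0.339 (SD, n = 2; two-sided exact permutation p = 0.33). In Pvalb-like neurons the shares were 0.495%, 0.397%, 4.23% and 3.50%, a difference of 3.42 points (exact permutation p = 0.33). With 2 libraries against 2 there are 6 arrangements and 0.33 is the smallest p they can give. In Sst-like neurons the exact 95% binomial intervals of the Sel1L SynCre libraries began at 3.51%. Those of the Sel1L fl/fl libraries ended at 1.40% and 2.81%. In Pvalb-like neurons the Sel1L SynCre intervals began at 2.09%, above both Sel1L fl/fl values. The interval of Sel1L fl/fl replicate 2 there reached 2.19%, so intervals of the 2 labels overlapped. The differences were 5.43 and 3.47 points without Sel1L fl/fl replicate 1. In DG-like neurons, where 4 other members rose, the share of Fkbp11 went only from 0.172% and 0.292% to 0.751% and 0.710%. Among the interneurons, the difference was 3.27 points in Vip-like and 1.82 in Lamp5-like neurons. Among the pyramidal subtypes, it was 1.21 points in L4/5 IT-like, 0.490 in L6 CT-like and 0.289 in L2/3 IT-like cortical neurons, 1.15 in CA3-like neurons and -0.221 in CA1-like neurons. The Vip-like difference rested on Sel1L SynCre replicate 2, with 6.86% against 1.67% in replicate 1, and was 0.675 points without replicate 2.

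**Figure D3:**
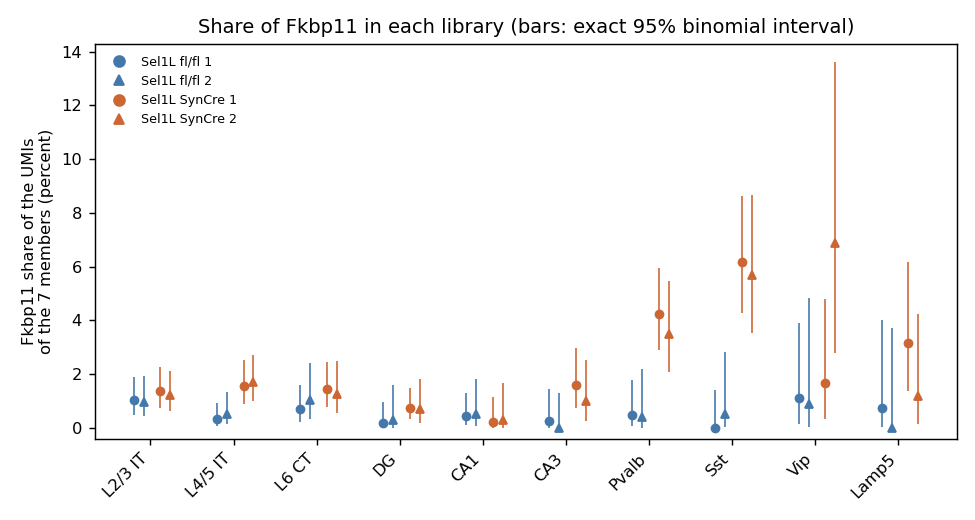
Fkbp11 as a percent of the UMIs of the 7 members, per library, in 10 neuron subtypes; bars are exact 95% binomial intervals, which cover counting error only. The Sel1L SynCre libraries lie at 6.18% and 5.70% in Sst-like and at 4.23% and 3.50% in Pvalb-like neurons. Only in Sst-like neurons do the intervals of the 2 labels stay apart. Some intervals overlap between labels in Pvalb-like and L4/5 IT-like neurons, and all of them overlap in the other subtypes.

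In these interneurons none of the other 6 members had a step of this relative size. In Sst-like neurons Ppib made up 44.3%, 48.5%, 50.6% and 41.3% of the 7 members' UMIs and Fkbp14 14.5%, 15.8%, 14.9% and 17.7%, with the groups overlapping for both. The share of Fkbp7 was 7.25%, 7.14%, 8.69% and 12%, higher in both Sel1L SynCre libraries, and that of Fkbp2 was 31.7%, 26.0%, 18.1% and 20.8%, lower in both. In Pvalb-like neurons the share of Fkbp14 was 7.18%, 7.94%, 10.8% and 13.6%, again higher in both Sel1L SynCre libraries.

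Ppib, the cyclophilin, rose in the 3 subtypes, with a smaller fitted fold than Fkbp11 in both interneuron classes. It was at 52.8, 54.1, 194 and 101 CPM in the DG-like class (log2 fold change 1.41, SE 0.22, adjusted p = 0.0025 by edgeR, where 1.96% of genes were called higher). In Sst-like neurons it was at 39.4, 50.0, 143 and 88.2 (1.31, SE 0.21, adjusted p = 0.0014) and in Pvalb-like neurons at 63.3, 60.8, 189 and 102 (1.15, SE 0.23, adjusted p = 0.010). Sel1L SynCre replicate 1 was above replicate 2 in all 10 subtypes, and without it the log2 fold changes were 0.85 in DG-like, 0.90 in Sst-like and 0.65 in Pvalb-like neurons, the last no longer called (adjusted p = 0.075). Both Sel1L SynCre libraries lay above both Sel1L fl/fl libraries in 8 of 10 subtypes, with overlap in CA1-like and Vip-like neurons, and 24.9% of all pairs of a gene and a subtype were arranged in that way. With DESeq2 the DG-like and Pvalb-like calls were lost (1.41, adjusted p = 0.083, and 1.16, adjusted p = 0.19). With all libraries Ppib was not called in Lamp5-like (1.12, adjusted p = 0.14 by edgeR) or CA3-like neurons (0.73, adjusted p = 0.28). Without Sel1L fl/fl replicate 1 the 3 calls were kept and Ppib also passed in Lamp5-like neurons (1.19, adjusted p = 5.2e-04), where it was at 44.3, 42.6, 132 and 71.9 CPM in the 4 libraries. Without Sel1L SynCre replicate 2 it also passed in L4/5 IT-like (1.07, adjusted p = 1.2e-04), L6 CT-like (0.99, adjusted p = 4.6e-04), CA3-like (0.91, adjusted p = 7.6e-04) and Lamp5-like neurons (1.50, adjusted p = 2.1e-06). In CA3-like neurons it passed without Sel1L fl/fl replicate 2 as well (0.80, adjusted p = 0.026).

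Fkbp14 rose in the same 3 subtypes, and its calls there held with each library left out in turn. It was at 12.9, 16.3, 42.1 and 37.7 CPM in Sst-like neurons (log2 fold change 1.39, SE 0.23, adjusted p = 0.0015 by edgeR), at 8.20, 8.27, 33.8 and 28.9 in Pvalb-like neurons (1.85, SE 0.25, adjusted p = 7.9e-04) and at 3.30, 4.09, 17.2 and 11.5 in DG-like neurons (1.92, SE 0.31, adjusted p = 0.0033). In each of them the lower Sel1L SynCre library was well above the higher Sel1L fl/fl library. In Lamp5-like neurons it was at 7.48, 8.33, 29.5 and 17.8 (1.47, adjusted p = 0.18, where 0.268% of genes were called higher) and in CA3-like neurons at 9.44, 6.52, 20.6 and 17.1 (1.13, adjusted p = 0.41, where 0.0492% of genes were called higher). Neither passed, although the groups did not overlap, and the Lamp5-like value passed without Sel1L SynCre replicate 2 (1.81, adjusted p = 0.035). The Fkbp14 gene overlaps Plekha8 on the other strand, and whether the counting used strand is not given in the sources used here. Plekha8 had 67, 42, 42 and 42 UMIs in Sst-like neurons.

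Fkbp7, the partner of HSPA5, was at 6.46, 7.37, 24.6 and 25.5 CPM in Sst-like neurons (log2 fold change 1.78, SE 0.29, adjusted p = 0.0015 by edgeR). It was at 5.31, 4.32, 15.3 and 14.8 in DG-like neurons (1.56, SE 0.27, adjusted p = 0.0045) and at 9.33, 8.27, 23.1 and 19.4 in Pvalb-like neurons (1.18, SE 0.27, adjusted p = 0.022). The spread within a label was small beside the gap in all 3. Without Sel1L fl/fl replicate 1 all 3 calls were kept, and without Sel1L SynCre replicate 1 (1.05, adjusted p = 0.087) the Pvalb-like call was lost. It was also lost with DESeq2 (1.19, adjusted p = 0.18) and when every subtype was thinned to equal depth (1.25, adjusted p = 0.095), which ended the DG-like call too (0.95, adjusted p = 0.32). In L5/6 NP-like neurons, which were not tested, Fkbp7 was at 1.43, 0, 6.04 and 7.87 CPM. The labels overlapped in the other untested subtypes, at 1.73, 3.57, 4.73 and 1.12 in L6b-like and 3.05, 6.05, 4.64 and 5.07 in thalamus-like neurons.

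Fkbp2 had the smallest folds of the 5 members that rose in Sst-like and Pvalb-like neurons. It was at 20.2, 14.3, 52.0 and 35.8 CPM in the DG-like class (log2 fold change 1.26, SE 0.21, adjusted p = 0.0043 by edgeR), at 30.3, 21.5, 51.8 and 48.8 in Pvalb-like neurons (0.86, SE 0.20, adjusted p = 0.028) and at 28.2, 26.8, 51.4 and 44.4 in Sst-like neurons (0.71, SE 0.19, adjusted p = 0.035). In the Sst-like neurons the call was lost without Sel1L fl/fl replicate 1 (0.78, adjusted p = 0.065), without Sel1L fl/fl replicate 2 (0.64, adjusted p = 0.10) and without Sel1L SynCre replicate 1 (0.59, adjusted p = 0.22). In the Pvalb-like neurons it was lost without Sel1L fl/fl replicate 2 (0.62, adjusted p = 0.12). DESeq2 called neither (0.70, adjusted p = 0.32, and 0.87, adjusted p = 0.13). Thinned to equal depth, Fkbp2 missed the threshold in all 3 subtypes, at 1.05, adjusted p = 0.065, in the DG-like class, 0.91, adjusted p = 0.059, in the Pvalb-like class and 0.73, adjusted p = 0.094, in the Sst-like class. In the other 7 subtypes its log2 fold changes were above 0 and none passed, from 0.07 in CA3-like to 1.00 in Lamp5-like neurons, where it passed without Sel1L fl/fl replicate 2 (1.66, adjusted p = 0.014).

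**Figure D4:**
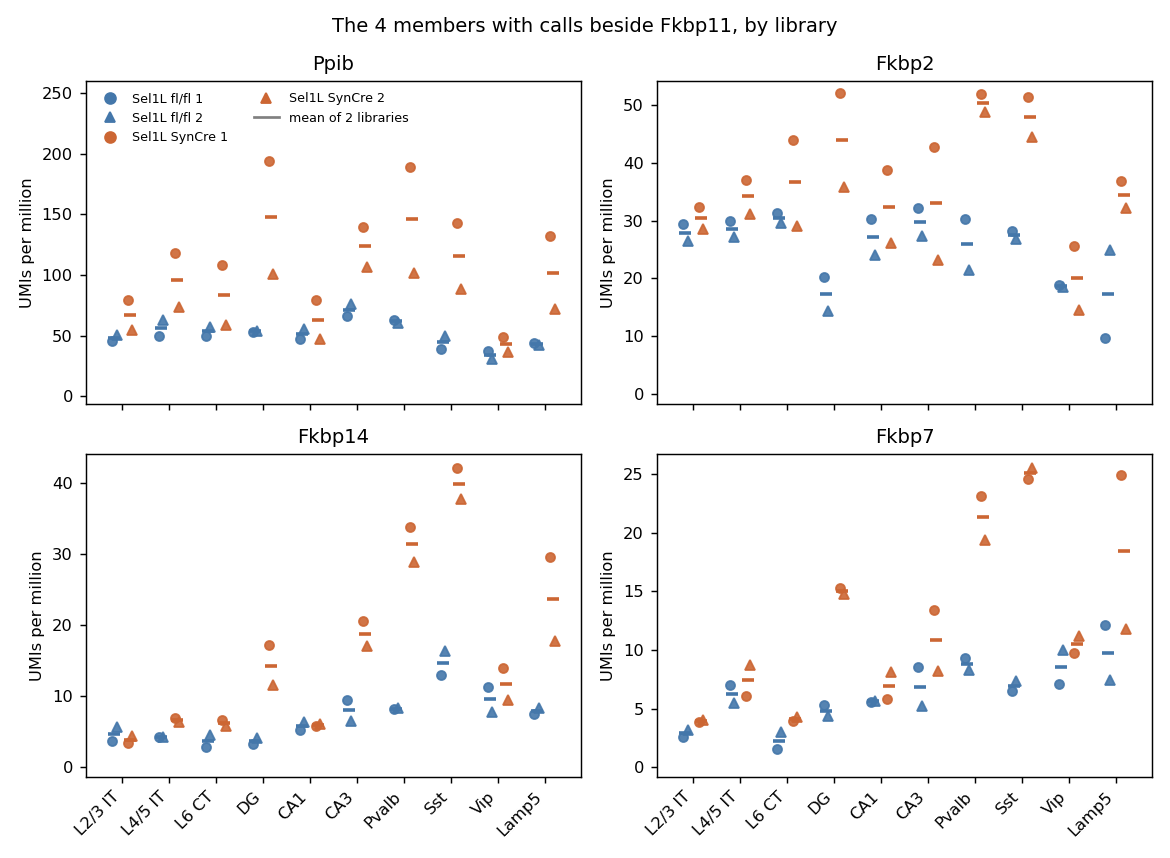
CPM of Ppib, Fkbp2, Fkbp14 and Fkbp7 in 10 neuron subtypes, with 1 point per library and a bar at the mean of the 2 libraries of a label. All 4 genes are separated by label in DG-, Pvalb- and Sst-like neurons, and Sel1L SynCre replicate 1 (circles) is above replicate 2 for Ppib throughout.

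Fkbp9 and Fkbp10 had no calls. Fkbp9 passed the filter in 6 subtypes, with log2 fold changes from -0.63 in CA1-like neurons (4.87, 4.17, 3.06 and 3.06 CPM, adjusted p = 0.70) to 0.35 in CA3-like neurons (adjusted p = 0.89). In Sst-like neurons it had too few UMIs for the test, at 1.36, 1.58, 3.28 and 3.04 CPM (ratio 2.19, counting interval 0.775 to 6.66). Fkbp10 passed only in L2/3 IT-like neurons (log2 fold change -0.19, adjusted p = 0.94), and was at 0.680, 0.526, 1.09 and 2.43 CPM in Sst-like neurons (ratio 2.79, 0.595 to 17.2). The Fkbp10 gene overlaps Nt5c3b on the other strand, and Ppib overlaps Snx22 in the same way.

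In a single subtype, 4 of 4 tested members were called in DG-like neurons (median log2 fold change 1.48), 5 of 5 in Pvalb-like (1.18) and 5 of 5 in Sst-like neurons (1.39), where the medians of all genes tested were 0.01 in each. Of all genes tested, 1.96%, 2.38% and 4.50% were called higher there, in the same order. Fkbp11 entered the Sst-like and Pvalb-like fits only through the Sel1L SynCre libraries, so the count of tested members is not a count of all members. In L4/5 IT-like neurons 0 of 6 were called (median 0.40, where 0.986% of genes were called higher). In L6 CT-like neurons it was 0 of 5 (0.59, 0.527% of genes). The medians were 1.06 in Lamp5-like and 0.54 in CA3-like neurons, without a call. They were 0.19 in CA1-like (0.0155% of genes called higher), 0.26 in Vip-like (0.00892%) and 0.11 in L2/3 IT-like neurons. At an unadjusted p under 0.05, 3 members were higher in Lamp5-like neurons, where 11.1% of all genes passed in either direction, 2 each in CA3-like (8.05%) and L4/5 IT-like (14.3%), 1 each in L6 CT-like (12.1%) and L2/3 IT-like (12.5%), and 0 in CA1-like (8.75%) or Vip-like neurons (6.90%). No result was read from a single member at that background.

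Whether a fold was larger than in CA1-like neurons was tested as an interaction of genotype and subtype, with library as a block. Of 21 differences, 10 passed at an adjusted p of 0.05, each with the larger fold outside CA1, where 1.99% of genes passed in that direction for Sst-like, 1.40% for Pvalb-like, and 1.20% for DG-like neurons. On the log2 scale the fold of Ppib was larger by 1.15 in DG-like neurons and, among interneurons, by 1.00 in Sst-like and 0.85 in Pvalb-like cells, and passed with each library left out. Fkbp2 passed in DG-like neurons only (1.09, adjusted p = 0.0023 by edgeR), also with each library left out, against 0.65 (adjusted p = 0.13) in Pvalb-like and 0.48 (adjusted p = 0.32) in Sst-like neurons; whether these 3 subtypes differ from each other was not tested.

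Fkbp11 differed from its CA1-like fold by 6.48 on the log2 scale (SE 1.52, adjusted p = 0.011 by edgeR) in Sst-like neurons. The difference was 4.83 (SE 1.35, adjusted p = 0.047) in Pvalb-like and 3.62 (SE 1.42, adjusted p = 0.28) in DG-like neurons. In CA1-like neurons Fkbp11 had 3, 2, 1 and 1 UMIs, too few for a test by itself. It entered this fit only through Sel1L SynCre libraries, the group in which it was higher, and DESeq2 gave it no adjusted p. No result was therefore drawn from these p-values of Fkbp11. The Sst-like difference no longer passed without Sel1L fl/fl replicate 1 (5.37, adjusted p = 0.23) or without Sel1L SynCre replicate 1 (6.29, adjusted p = 0.12). The Pvalb-like one no longer passed with any library left out (4.44 to 5.19, adjusted p from 0.10 to 0.36). The same held in Sst-like neurons for Fkbp7, which differed by 1.48 with all libraries (1.38 to 1.73, adjusted p from 0.053 to 0.25), and for Fkbp14, which differed by 1.34 (1.31 to 1.48, adjusted p from 0.060 to 0.19). Fkbp14 differed by 1.82 in Pvalb-like neurons, which was lost without Sel1L SynCre replicate 1 (1.73, adjusted p = 0.066), and by 1.93 in DG-like neurons, which was lost without Sel1L fl/fl replicate 1 (1.88, adjusted p = 0.062) and without Sel1L SynCre replicate 1 (1.58, adjusted p = 0.16). Without Sel1L fl/fl replicate 1, 5 of the 10 passed, for Ppib in the 3 subtypes, Fkbp2 in DG-like and Fkbp14 in Pvalb-like neurons.

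Outside neurons, 22 pairs of a member and a class passed the filter and 1 was called, against 0.728% of all genes in these classes. This was Fkbp2 in oligodendrocyte precursor (OPC)-like nuclei, at 20.5, 28.9, 52.6 and 44.3 CPM (log2 fold change 1.00, SE 0.26, adjusted p = 0.026 by edgeR, where 1.93% of genes were called higher). The call was lost without Sel1L fl/fl replicate 1 (0.76, adjusted p = 0.26) and without Sel1L SynCre replicate 1 (0.84, adjusted p = 0.26), and with DESeq2 (0.99, adjusted p = 0.48). OPC-like nuclei also held Cre RNA, at 18.3, 0, 16.7 and 11.8 CPM. Their Ppib was at 52.5, 60.0, 60.5 and 51.2 (log2 fold change 0.01, adjusted p = 0.99), with no separation of the labels, and Fkbp11 had 1, 1, 1 and 2 UMIs. In astrocyte-like nuclei Fkbp10 was at 17.6, 18.7, 9.90 and 9.80 CPM, lower in both Sel1L SynCre libraries (log2 fold change -0.85, SE 0.38) but with an adjusted p of 0.44.

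Across 17 classes with at least 20 nuclei in every library, the members were spread unevenly, which is a description since the classes were made from the same counts. Fkbp9 had its highest median in endothelial-like nuclei (42.8 CPM, from 24 UMIs in all), then in astrocyte-like (27.1, range 22.6 to 33.4), which did not overlap OPC-like nuclei (15.4, range 14.8 to 17.5), and its lowest in DG-like neurons (0.419). Fkbp10 was highest in astrocyte-like nuclei (13.7, range 9.80 to 18.7) and was at 0 UMIs in the microglia-like class. Outside astrocyte-like nuclei no class with more than 2 Fkbp10 UMIs had a median above 2.64. The highest medians of Fkbp14 lay in Sst-like neurons (27.0) and oligodendrocyte-like nuclei (26.3), but these medians mix the labels. In the Sel1L fl/fl libraries Fkbp14 was at 12.9 and 16.3 CPM in Sst-like neurons, below the 26.9 and 30.8 of oligodendrocyte-like nuclei, and in the Sel1L SynCre libraries it was above, at 42.1 and 37.7 against 25.7 and 22.3. Fkbp7 was highest in OPC-like nuclei (21.8), Fkbp2 in microglia-like nuclei (51.8) and Ppib in endothelial-like nuclei (147), each overlapping its neighbour in the order. Fkbp11 had its highest median in Sst-like neurons (6.35), with a range from 0 to 17.5 over both labels, and its lowest in CA1-like neurons (0.348).

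**Figure D5:**
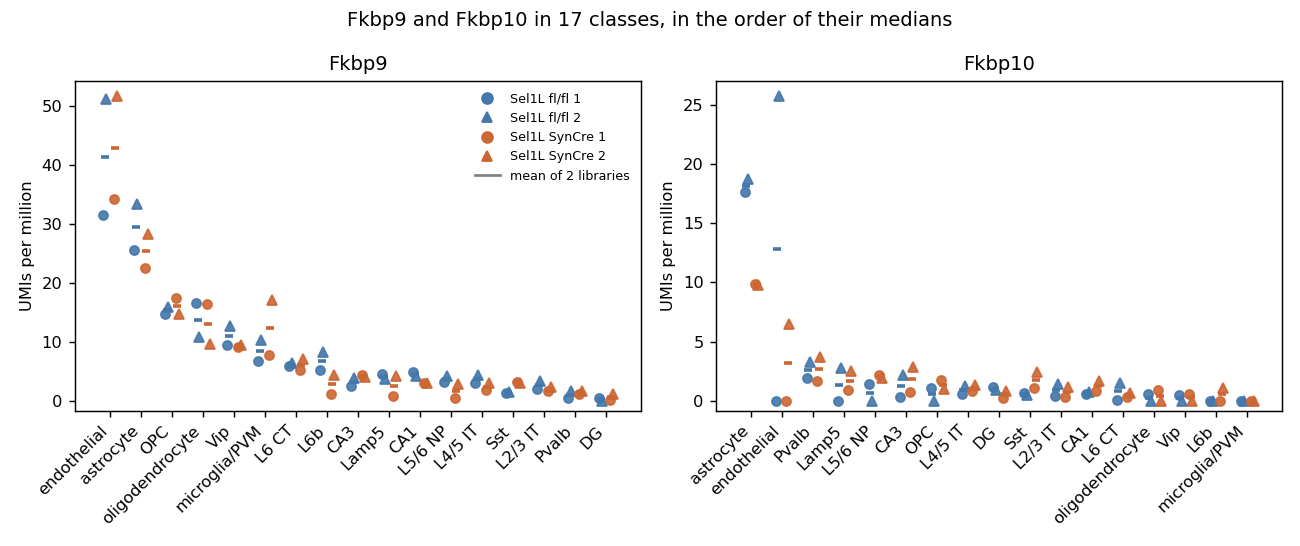
CPM of Fkbp9 and Fkbp10 in 17 classes, ordered from the highest to the lowest median, with 1 point per library and a bar at the mean of the 2 libraries of a label. Fkbp9 is highest in endothelial-like and astrocyte-like nuclei, and Fkbp10 in astrocyte-like nuclei, where the libraries labelled Sel1L SynCre lie at 9.90 and 9.80 and those labelled Sel1L fl/fl at 17.6 and 18.7.

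The order of neuron subtypes differed between labels for the members that rose. In the Sel1L fl/fl libraries the highest mean of Fkbp11 among the 10 tested subtypes was in L2/3 IT-like neurons (0.883 CPM), with L6 CT-like neurons close to it (0.852), and in the Sel1L SynCre libraries it was in Sst-like neurons (14.8), followed by Pvalb-like neurons (10.4). The highest mean of Ppib lay in CA3-like neurons (71.2) without the SynCre label and in DG-like neurons (148) with it. That of Fkbp7 lay in Lamp5-like neurons (9.74) and then in Sst-like neurons (25.1). Fkbp14 was highest in Sst-like neurons under both labels, at 14.6 and 39.9, and Fkbp9 in Vip-like neurons, at 11.1 and 9.30.

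Other gene lists give the setting. Of 27 prolyl isomerases of the cytosol, nucleus and mitochondria, 24 were tested in Sst-like neurons and 3 rose, with a median log2 fold change of 0.07, where 4.50% of all genes were called higher. The 3 with the largest folds were Fkbp1b, a partner of calcium release channels (0.84, adjusted p = 0.29 by edgeR), Nktr (0.74, adjusted p = 0.0044) and Ppwd1 (0.59, adjusted p = 0.033). In Pvalb-like neurons 0 of 26 were called (median -0.01, 2.38% of all genes) and in DG-like neurons 1 of 25 (median 0.00, 1.96% of all genes). These 3 counts were 1 of 25, 0 of 26 and 1 of 26 without Sel1L fl/fl replicate 1. Of 14 collagen-modifying enzymes and collagen chaperones, 8 were tested in Sst-like neurons and 1 rose: P3h1, the prolyl 3-hydroxylase that forms a complex with cyclophilin B, at 12.9, 14.2, 26.8 and 24.9 CPM (0.86, SE 0.25, adjusted p = 0.050, just under the threshold). P4ha1 (0.46), Plod2 (0.27) and P3h3 (-0.12) did not pass. In DG-like neurons P3h1 was again the 1 call of 9, and in Pvalb-like neurons 0 of 10 were called. Neither P3h1 call was left without Sel1L fl/fl replicate 1, with 0 of 9 and 0 of 10.

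ER chaperones and disulfide isomerases rose in larger numbers: 20 of 27 in each of Sst-like, Pvalb-like and DG-like neurons, with median log2 fold changes of 1.65, 1.55 and 1.34, 15 of 26 in OPC-like nuclei, and 0 of 27 in CA1-like neurons. The shares of all genes called higher were 4.50%, 2.38% and 1.96% in these neurons, 1.93% in OPC-like nuclei and 0.0155% in CA1-like neurons. Without Sel1L fl/fl replicate 1, 22 of 27, 21 of 27, 19 of 27, 15 of 27 and 0 of 27 were called in the same order. In Sst-like neurons the largest were Sdf2l1, which works with HSPA5 (4.26, adjusted p = 5.4e-05 by edgeR), the disulfide isomerase gene Pdia5 (3.70, adjusted p = 3.2e-05) and Hspa5 itself (3.17, adjusted p = 7.9e-06), and the smallest was Sil1, its nucleotide exchange factor (-0.25, adjusted p = 0.54). Of 20 targets of ATF4, the transcription factor of the integrated stress response, 17 of 19 tested rose in Sst-like, 11 of 19 in Pvalb-like, 9 of 15 in DG-like and 0 of 10 in CA1-like neurons, and 16 of 20, 9 of 20, 7 of 17 and 0 of 9 without that library. With all libraries, 9 of 18 ATF4 targets also rose in L4/5 IT-like neurons (0.986% of all genes) and 14 of 16 in OPC-like nuclei (1.93%). In L6 CT-like (0.527%) and Lamp5-like neurons (0.268%) 2 of 16 each rose, and 0 in L2/3 IT-like, CA3-like and Vip-like neurons. From the chaperone list, 9 of 27 rose in Lamp5-like, 8 in L4/5 IT-like, 4 in L6 CT-like and 3 in CA3-like neurons. No member was called in any of these neurons. Among the ATF4 targets in Sst-like neurons, Slc7a11, the cystine transporter (4.84, adjusted p = 4.6e-07), Trib3 (4.03, adjusted p = 3.6e-04) and Ddit3, which encodes CHOP (3.14, adjusted p = 1.7e-06), led. Vldlr (0.64, adjusted p = 0.18) came last. The counting interval of the summed ratio of Fkbp11, 12.4 to 2917, covered that of Slc7a11, 20.6 to 49.7, so no order of these genes was read from their folds. The other 4 members that rose in Sst-like neurons had log2 fold changes of 0.71 to 1.78, against a median of 1.65 for the chaperone list.

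Genes with patterns most like those of 3 members were sought among 15519 genes over 52 pseudobulks, 13 neuron subtypes in 4 libraries, by Pearson's r of log2(CPM + 1). These points share libraries and are not independent. For Fkbp11 they were Cyb5r2 (0.85), Ddx50 (0.82), Slc7a11 (0.81), Trib3 (0.81) and Sdf2l1 (0.81). For Ppib they were Dnajc3 (0.83), Nucb2 (0.82), Derl3 (0.82), Pdia4 (0.81) and Hspa5 (0.81), and for Fkbp2 they were Nucb2 (0.75), Ppib (0.74), Far1 (0.73), Hyou1 (0.71) and Pdia6 (0.70). Among the members, r with Fkbp11 was 0.64 for Fkbp14, 0.63 for Ppib, 0.51 for Fkbp7, 0.49 for Fkbp2, 0.20 for Fkbp10 and -0.11 for Fkbp9.

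Marker genes of other cell types moved with the labels in places. In Sst-like neurons the summed level of the 6 oligodendrocyte markers was 89.7, 58.4, 47.5 and 39.5 CPM, lower with the SynCre label, with 1 of 4 tested called lower. That of the 5 choroid plexus markers was 33.0, 17.9, 68.3 and 48.7, higher with it, with the 1 tested marker called higher and Otx2 at 0. In DG-like neurons the oligodendrocyte markers were at 152, 116, 106 and 91.4, with 1 of 4 tested called lower, and the 6 astrocyte markers at 1183, 1153, 889 and 897, with 2 of 4 called lower. In Pvalb-like neurons the choroid plexus markers were at 25.2, 18.2, 62.5 and 27.3, with 0 of 1 tested called, and the oligodendrocyte markers at 67.6, 67.8, 65.5 and 44.2, with 1 of 3 called lower. The choroid plexus sum was highest in Sel1L SynCre replicate 1 in other classes too. It was 55.8, 35.0, 84.5 and 55.0 in DG-like and 43.5, 22.8, 82.1 and 41.2 in CA1-like neurons. In L4/5 IT-like neurons it was 29.5, 13.9, 53.2 and 29.6, and in OPC-like nuclei 98.7, 62.2, 204 and 81.8. The part of these markers in the results was not tested.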

How the data were processed

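Nuclei from cortex and hippocampus were stained with propidium iodide, sorted and sequenced with the 10x Genomics 3′ kit. The deposited files hold raw UMI counts per gene and nucleus, which the authors made with Cell Ranger 6.1.0 on GRCm38, per the submitters' processing notes; whether introns and strand were counted is not given in the sources used here. The files held 7366 to 12599 barcodes per library. Nuclei were required to show over 600 genes and under 5% of mitochondrial UMIs, doublets found by Scrublet (scanpy 1.11.5) were left out (426 to 1246 per library), and 33323 nuclei remained. Seurat 5.3.0 integrated the libraries over 17 dimensions of 2000 variable features and clustered nuclei at a resolution of 0.2, or 0.4 within neurons and other cells, and clusters were named from fixed markers with at least 3 detected. No L5/6 IT-like cluster could be named. These names are rebuilt and can differ from those of the study.

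Counts were summed per library and class, each class with at least 20 nuclei per library, and tested with edgeR 4.0.16 (quasi-likelihood, TMM, filterByExpr, prior count 0.125, R 4.3.3), two-sided, with Benjamini-Hochberg adjustment over all genes tested in a class and a threshold of 0.05. The mouse is the replicate, with 2 per group. DESeq2 1.42.0 was an alternative, as were other normalization, filters, depth, nuclei and names, and each library left out in turn. The 4 other gene lists were put through these alternatives only after the data had been seen. Fkbp11 was set against the other members by an exact permutation test of its share. Intervals and floors (3 counts) cover counting error only, since they do not include the spread between mice. On simulated counts for Sst-like neurons (11851 genes), 93 of 97 genes changed 4-fold and 54 of 94 changed 2-fold were recovered, with 7 other genes called.

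The members and lists were chosen with earlier results of these data known. Named genes were all members, the 3 largest and 1 smallest fold changes of each other list in Sst-like neurons (1 of these genes is not reported here), and the 5 genes most correlated with Fkbp11, Fkbp2 and Ppib among those with at least 200 UMIs. Gene positions and overlaps are from GENCODE vM21 and promoters from RefSeq. The members lie on GRCm38 chromosome 19 from 6977741 to 6980501 (Fkbp2, ENSMUSG00000056629), chromosome 2 from 76663044 to 76673116 (Fkbp7, ENSMUSG00000002732), chromosome 6 from 56832059 to 56879358 (Fkbp9, ENSMUSG00000029781), chromosome 11 from 100415697 to 100424824 (Fkbp10, ENSMUSG00000001555), chromosome 15 from 98724366 to 98728198 (Fkbp11, ENSMUSG00000003355), chromosome 6 from 54577604 to 54597308 (Fkbp14, ENSMUSG00000038074) and chromosome 9 from 66060222 to 66066623 (Ppib, ENSMUSG00000032383).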

Additional observations from a re-analysis of the deposited data

Results flagged for a closer look

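For 10 pairs of a member and a subtype the interaction test found a log2 fold change that differed from that in CA1-like neurons. In Sst-like neurons it was larger by 6.48 for Fkbp11, 1.48 for Fkbp7, 1.34 for Fkbp14 and 1.00 for Ppib. In Pvalb-like neurons it was larger by 4.83 for Fkbp11, 1.82 for Fkbp14 and 0.85 for Ppib, and in DG-like neurons by 1.93 for Fkbp14, 1.15 for Ppib and 1.09 for Fkbp2. Of all genes, 1.99% (Sst-like), 1.40% (Pvalb-like) and 1.20% (DG-like) passed in this direction. Whether the differences of Fkbp7, Fkbp11 and Fkbp14 passed depended on which libraries were kept. Fkbp11 had few UMIs in CA1-like neurons, and no result was drawn from its p-values. Against Vip-like neurons 5 pairs passed, and Fkbp11 did not (adjusted p = 0.28 for Sst-like and 0.64 for Pvalb-like neurons by edgeR).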

How the results depend on the processing

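Over 750 values of member fold changes under the alternatives, 683 kept their direction and side of the threshold, 19 lost and 18 gained a call, and 30 changed sign, none of them called as reported or under the alternative. These were Fkbp14 in CA1-like neurons, 0.00 as reported, with DESeq2 (-0.01), no filter (-0.02), the replicate block (-0.01), doublets kept (-0.15) and each library left out (-0.13 to 0.10); Ppib in OPC-like nuclei, 0.01 as reported, with DESeq2 (-0.00), no filter (-0.01), at least 10 counts in every library (-0.01) and each library left out (-0.14 to 0.13); Fkbp10 in L2/3 IT-like neurons with doublets kept (0.12) and each library left out (-1.28 to 0.80); and Fkbp7 in Vip-like neurons when thinned (-0.02). With each library left out, Fkbp2 ran from -0.02 to 0.23 in L2/3 IT-like, -0.17 to 0.50 in L6 CT-like, -0.17 to 0.47 in CA1-like, -0.46 to 0.45 in CA3-like and -0.42 to 0.45 in Vip-like neurons, Fkbp14 from -0.51 to 0.03 in L2/3 IT-like, -0.12 to 0.62 in Vip-like and -0.02 to 0.36 in OPC-like classes, Fkbp7 from -0.05 to 0.44 in L4/5 IT-like, Fkbp9 from -0.25 to 0.10 in L6 CT-like and -0.07 to 0.21 in OPC-like, and Ppib from -0.21 to 0.61 in CA1-like classes. Member calls over the neuron subtypes, 14 as reported, fell to 9 with DESeq2 and to 8 when all subtypes were thinned to 1080315 UMIs per library, and lay between 11 and 19 with each library left out. The 1 call outside neurons was 0 with DESeq2 and when thinned, and 0 to 1 with each library left out. With at least 10 counts asked of every library, Fkbp11 was not tested, since it passed the usual filter only through the Sel1L SynCre libraries. Its log2 fold change in L4/5 IT-like neurons passed with no filter on low counts (2.42), with doublets kept (2.77) and without integration (2.56). The difference in the share of Fkbp11 reversed when thinned in L2/3 IT-like (-0.953 percentage points) and CA1-like neurons (0.352), where few Fkbp11 UMIs were left; thinned, it was 0.0192 in L4/5 IT-like, 0.687 in DG-like, 0.261 in CA3-like and 3.03 in Pvalb-like neurons. With doublets kept it was 0.407 in L2/3 IT-like and 1.33 in L4/5 IT-like neurons, and without integration -0.0893 in CA1-like neurons. The 10 differences from CA1-like neurons became 5 with DESeq2, 5 with Vip-like neurons as the reference and 4 to 7 with each library left out. Against Vip-like neurons Fkbp11 differed by 3.83 in Sst-like (adjusted p = 0.28 by edgeR) and by 2.16 in Pvalb-like neurons (adjusted p = 0.64). The collagen list, with 2 calls over the subtypes, had 1 with DESeq2, 6 with no filter, 0 when thinned and 1 to 5 with each library left out. The ATF4 list, with 50 calls, had 77 with no filter and 30 when thinned. Except where a construction is named, the cause was not tested.

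Replicate numbers were shared by the labels but only 2 pairs exist, so they were not taken to pair the mice; deviations of same-numbered libraries correlated at 0.25 to 0.47 across genes. With the replicate block, 16 member calls passed in place of 14, the added ones being Fkbp14 (1.50, adjusted p = 0.046 by edgeR) and Ppib (1.12, adjusted p = 0.0022), both in Lamp5-like neurons, and the collagen list had 4.

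With 2 mice per group, sex and replicate number cannot be told apart. Fkbp10 and Fkbp11 in most subtypes, and Fkbp9 in 4 of 10, had too few UMIs for a test, and calls near the threshold moved with the borders of the clusters. The Cre transcripts in Sel1L fl/fl replicate 1 were not resolved.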

Other observations

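Fkbp5, the FKBP that glucocorticoids induce, is a cytosolic isomerase outside the 7 members. With the SynCre label it was called higher in L2/3 IT-like, L4/5 IT-like and L6 CT-like neurons. Of all genes, 0.237%, 0.986% and 0.527% were called higher there. Fkbp5 was also called higher in oligodendrocyte-like, OPC-like, astrocyte-like and microglia-like nuclei, against 0.728% of all genes over the classes outside neurons. It was not called in DG-like, Pvalb-like or Sst-like neurons, where ER members rose. It was also not called in CA1-like, CA3-like, Vip-like or Lamp5-like neurons, where no member was called. It was named after its values were seen, and whether the classes differ was not tested. Serpinh1, the collagen chaperone HSP47, was called higher in OPC-like nuclei, the 1 call of 10 in the collagen list there. Of all genes, 1.93% were called higher in these nuclei. The call depended on Sel1L fl/fl replicate 1. The median log2 fold change of the collagen list there was 0.04 with all libraries and 0.00 without that library.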
